A study of Mus musculus with 24 samples.

Results

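The 36 genes described here encode proteins of the centromere and of the kinetochore. They were listed by name, and a gene belonged if its symbol stood in the raw count files; all 36 were found among the 23364 genes of each library, and all 36 passed the low-count filter, which left 21456 genes for testing. The count files came from 24 RNA sequencing libraries of bone marrow cells of C57BL/6 mice, 8 to 12 weeks old and of both sexes, sorted as haematopoietic stem cells (HSC) and as the multipotent progenitors MPP1 and MPP2. The sorting gate common to the 3 populations kept CD150+ cells without Flt3 or lineage markers that bore cKit and Sca1; within it HSC lacked CD34 and CD48, MPP1 carried CD34 alone and MPP2 carried both. KO libraries (n = 3 for each population) came from Mysm1 fl/fl CreERT2 mice and Het libraries (n = 3) from Mysm1 +/fl CreERT2 mice, both injected 8 times within 16 days with 0.15 mg/g tamoxifen, and Sham libraries (n = 2) came from Mysm1 fl mice given corn oil. KO and Het thus shared the Cre and the tamoxifen, while Sham differed from them in both drug and genotype, and the labels do not say whether Sham mice carried the Cre. The promoter that drives CreERT2 is not given in the sources used here. Deletion removes exon 3 of Mysm1, the gene of a histone H2A deubiquitinase. Cells of several mice were pooled for each library, so p-values measure the spread between pools. Replicates are numbered 1, 2_3 and 4, and Sham has no number 1.

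The kinetochore is the protein plate that links a chromosome to the microtubules of the spindle during cell division. Its base is the centromere, where nucleosomes carry the histone variant CENP-A and hold a group of inner proteins, the constitutive centromere-associated network (CCAN), through the whole cell cycle. The outer kinetochore assembles on that base before mitosis and disassembles after it: the MIS12, NDC80 and KNL1 complexes form the microtubule-binding core, and the RZZ complex, the SKA complex and the large proteins CENP-E and CENP-F join it. Haematopoietic stem cells divide rarely, and the progenitors below them divide more often. Here 14 genes were classed as constitutive centromere (Cenpa, Cenpb and 12 CCAN genes), 18 as outer kinetochore, and 4 as neither: Hjurp and Oip5, which serve the loading of CENP-A, and Sgol1 and Sgol2, the shugoshins that protect cohesion at the centromere.

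Library totals ran from 18823971 to 53196624 counts, and each member had at least 7789 counts summed over the 24 libraries. HSC KO library 1 (15740 genes detected) and HSC Het library 2_3 (15932) held the fewest genes, against up to 21150, and HSC Het library 1 and MPP1 Het library 1 were high in the erythroid gene Car1 (176 and 88.4 CPM). Of the genes of the sort markers, Kit was at 503.4 to 989.3 CPM in all libraries and Cd48 at 0 to 2.02 CPM in HSC against 13.8 to 56.9 CPM in MPP2, while Ly6a (Sca1) was at 16.8 to 26.7 CPM in HSC and only 0.825 to 8.48 CPM in MPP2, and Flt3, which the gate excludes, reached 98.0 CPM in MPP2 Het library 2_3. Whole-gene Mysm1 counts, at 76.7 to 137.6 CPM over all libraries, do not check the labels, because only exon 3 is deleted. CPM values are counts scaled for depth, with TMM factors, and a log2 change was called where edgeR's quasi-likelihood test gave a Benjamini-Hochberg adjusted p under 0.05 over all genes tested. In bulk RNA, fewer cells that express a gene and less of its RNA per cell cannot be told apart.

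In HSC, 3 of the 36 members rose in KO against Het and 0 fell. They were Cenpk and Cenpm, both CCAN subunits, and Ndc80, the microtubule-binding subunit that names the NDC80 complex. Of all genes tested, 0.322% were called higher and 0.294% lower. The log2 change was above 0 in 35 of 36 members, against 51.9% of all genes, and the median change was 0.89 (1.85-fold) for the members and 0.03 for all genes. At an unadjusted p under 0.05, 21 members and 9.75% of all genes were higher. In 12 members every KO library stood above every Het library, which held for 7.16% of all genes. These counts moved with single libraries. Without HSC KO library 1 and HSC Het library 2_3 together, edgeR called 0 of 36 members, and 9 had an unadjusted p under 0.05. There 31 lay above 0, and the median change was 0.42 for the members and 0.04 for all genes. Without HSC Het library 1 and MPP1 Het library 1 edgeR called 19, where the median of all genes was 0.17. The shares of all genes called in these settings are not given here.

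**Figure D1:**
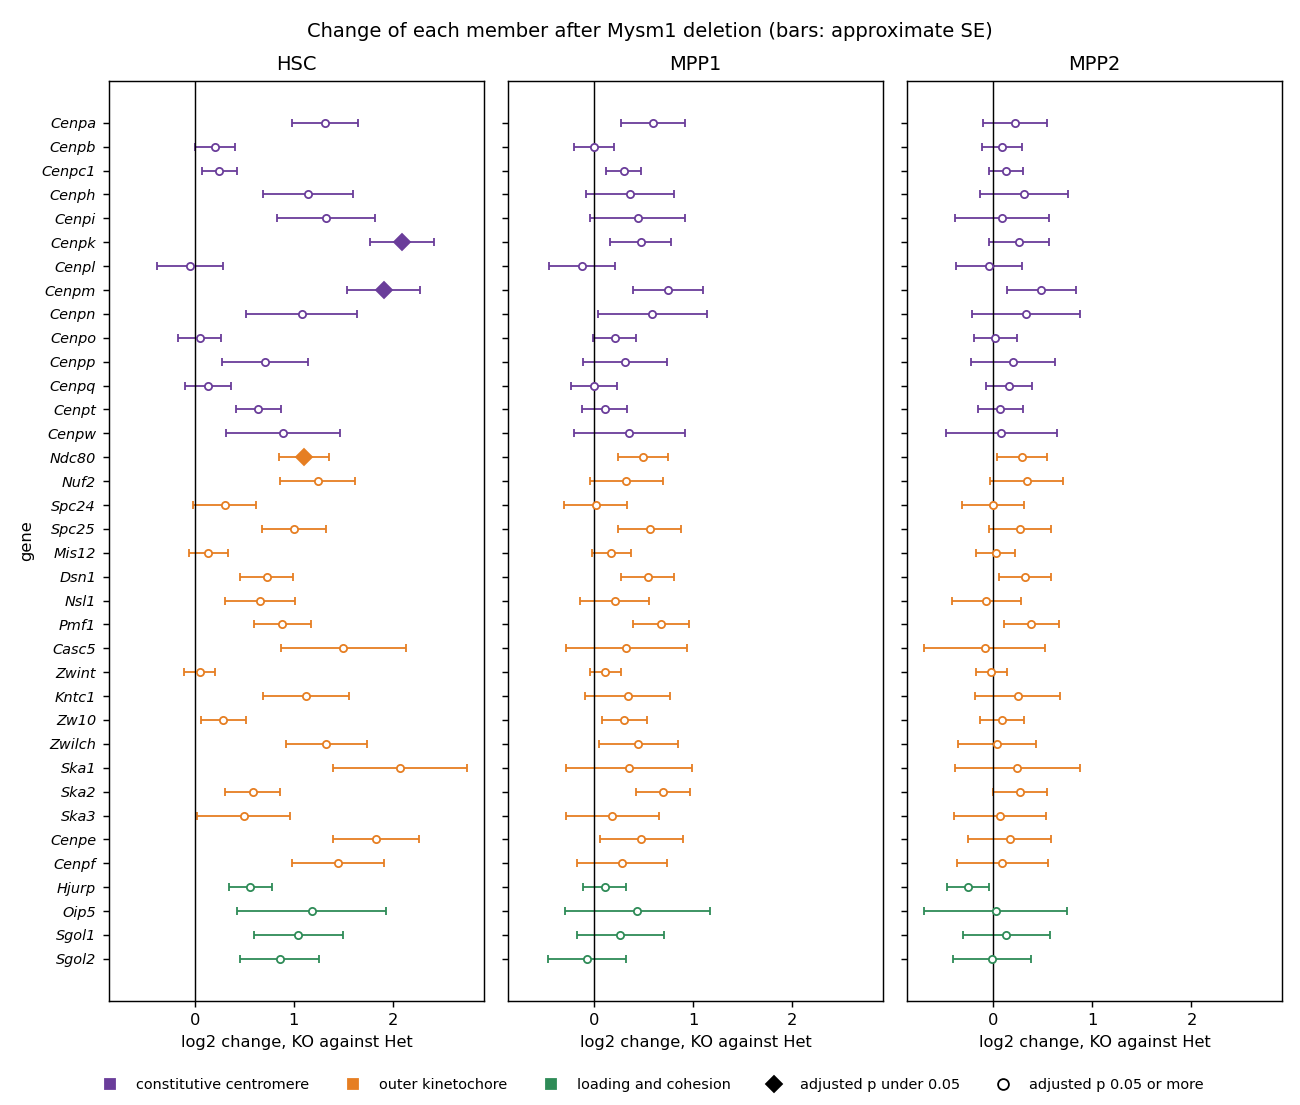
Log2 change of KO against Het for each of the 36 members (rows) in HSC, MPP1 and MPP2, with approximate standard errors as bars. Colours mark the class, and filled diamonds the 3 members called, Cenpk, Cenpm and Ndc80 in HSC; most points in HSC lie right of 0, and those of MPP2 lie near it.

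Cenpk (mm9, chr13:105019035-105041728, plus strand) had the smallest adjusted p among the members. Its level in HSC was 21.6, 12.4 and 14.7 CPM in KO libraries 1, 2_3 and 4, against 4.70, 2.22 and 4.55 CPM in the Het libraries. The lowest KO library was thus well above the highest Het library, and the log2 change was 2.09 ± 0.32 (approximate SE, n = 3 and 3, edgeR adjusted p = 0.00255). Sham HSC, at 5.19 and 10.9 CPM, lay below every KO library and above every Het library, so the 2 controls did not overlap. The call held in 14 of 15 alternatives and was lost without HSC KO library 1 and HSC Het library 2_3 (log2 change 1.55, edgeR adjusted p = 0.143).

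Cenpm (mm9, chr15:82064209-82075177, minus strand) stood at 15.6, 9.21 and 5.94 CPM in KO HSC and at 3.80, 1.31 and 3.14 CPM in Het HSC. Every KO library again exceeded every Het library, although KO library 4 came close to Het library 1, and the log2 change was 1.90 ± 0.37 (edgeR adjusted p = 0.0129). The call held in 11 of 15 alternatives. Without HSC KO library 1 the edgeR adjusted p was 0.135, and without HSC Het library 2_3 it was 0.107. Its highest value over the alternatives was 0.452.

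Ndc80 (mm9, chr17:71845440-71876197, minus strand) measured 70.1, 58.1 and 42.9 CPM in KO HSC against 30.0, 25.2 and 24.5 CPM in Het HSC. The Het libraries lay close together and below all KO libraries, and the log2 change was 1.10 ± 0.25 (edgeR adjusted p = 0.0474). This call was the nearest of the 3 to the threshold and held in 10 of 15 alternatives. It was lost without HSC KO library 1 (edgeR adjusted p = 0.255), KO library 2_3 (0.0823), Het library 2_3 (0.249) or Het library 4 (0.0902). It was also lost without HSC KO library 1 and HSC Het library 2_3 together. The highest edgeR adjusted p over the alternatives was 0.641.

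The 250 bases before the start of these 3 genes and of Zwint, a KNL1-complex gene with nearly equal levels in KO and Het HSC, are shown so that the promoters of the members called and of one that was not can be read side by side. They are RefSeq sequences of the build GRCm38.p6, 5′ to 3′ on the gene's strand and ending at the base before the start site. Capitals mark matches on either strand to 3 kinds of motif of cell-cycle promoters: the cell cycle gene homology region (CHR, searched as TTTGAA or TTCGAA), the CCAAT box, and E2F-like sites (searched as TTCCCGC, also as TTGGCGC, also as TTCGCGC and also as TTGCCGC). The windows are chr13:104228361-104228610 (plus strand) for the first of the 3 start sites listed for Cenpk, chr15:82244337-82244586 (minus) for Cenpm, chr17:71526858-71527107 (minus) for Ndc80 and chr10:72654596-72654845 (plus) for Zwint.
Cenpk: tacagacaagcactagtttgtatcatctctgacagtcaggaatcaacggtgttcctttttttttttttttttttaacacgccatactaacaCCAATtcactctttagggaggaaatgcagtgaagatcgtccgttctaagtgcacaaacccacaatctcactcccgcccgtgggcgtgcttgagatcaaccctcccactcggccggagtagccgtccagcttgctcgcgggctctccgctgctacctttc
Cenpm: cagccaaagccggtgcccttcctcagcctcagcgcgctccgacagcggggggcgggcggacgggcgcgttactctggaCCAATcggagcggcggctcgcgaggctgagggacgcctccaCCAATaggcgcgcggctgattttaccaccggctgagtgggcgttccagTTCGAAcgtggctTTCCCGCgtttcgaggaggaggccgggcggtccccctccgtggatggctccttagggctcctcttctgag
Ndc80: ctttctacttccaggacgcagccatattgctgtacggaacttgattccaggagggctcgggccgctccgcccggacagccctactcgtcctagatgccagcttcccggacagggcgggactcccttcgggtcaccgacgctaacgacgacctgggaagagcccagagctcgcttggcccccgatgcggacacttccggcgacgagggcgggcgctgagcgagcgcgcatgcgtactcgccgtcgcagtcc
Zwint: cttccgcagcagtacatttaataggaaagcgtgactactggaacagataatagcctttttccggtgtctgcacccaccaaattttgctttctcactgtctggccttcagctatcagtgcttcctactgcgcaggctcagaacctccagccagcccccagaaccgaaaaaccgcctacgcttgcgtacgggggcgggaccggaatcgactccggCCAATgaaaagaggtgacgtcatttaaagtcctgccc
Cenpm held all 3 kinds of motif: a CHR beginning 83 bases before the start, CCAAT boxes at 172 and 131 bases, and an E2F-like site at 70 bases. Cenpk had a single CCAAT box 159 bases before this start, and Zwint a single one at 37 bases. Of the other start sites listed for Cenpk, the second had CCAAT boxes at 65 and 40 bases and the third a CCAAT box at 238 bases and an E2F-like site at 18 bases. The Ndc80 window held 0 matches to these letters. The promoter table held 32 members, counted here at their first start site. Of these, 8 (25.0%) held a CHR, 17 (53.1%) a CCAAT box and 7 (21.9%) an E2F-like site. The shares among all 32841 windows of the table were 17.1%, 33.9% and 7.89%. Those windows include every start site listed and were not limited to the genes tested, so the shares are counted in unlike units. Over all start sites listed for the members, 3 matches overlapped another match; TTGGCGC, for example, can share letters with a CCAAT box read on the other strand. Constitutive and outer genes, with 14 windows each, were alike in the counts of single motifs. Respectively, 4 and 4 held a CHR, 7 and 7 a CCAAT box, and 4 and 3 an E2F-like site. A CHR together with a CCAAT box or an E2F-like site was held by 4 constitutive and 2 outer windows. Spc24, Nsl1, Zwilch and Ska1, all outer genes, had no entry in the table.

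**Figure D2:**
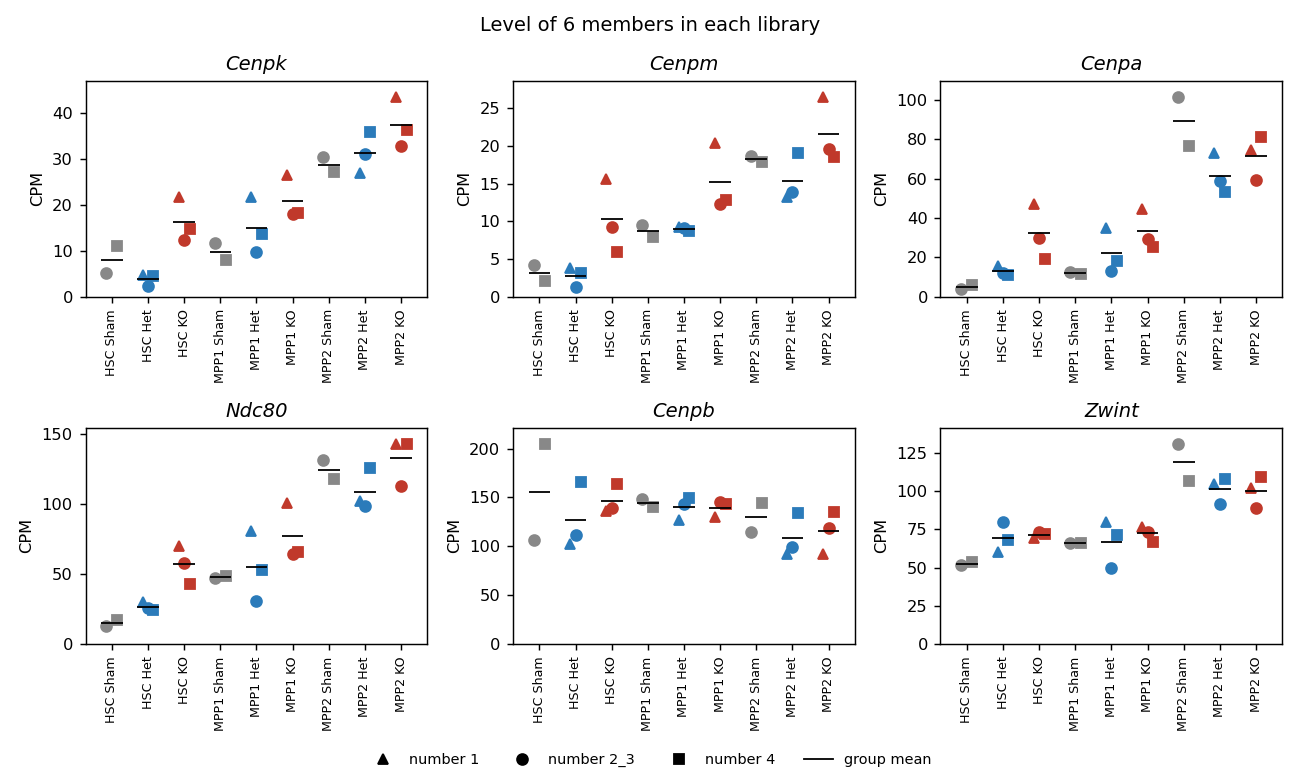
Level in CPM (vertical axis, from 0) of Cenpk, Cenpm, Cenpa, Ndc80, Cenpb and Zwint in each library of the 9 groups; symbols give the replicate number, colours the genotype (grey Sham, blue Het, red KO) and bars the group mean. In HSC the KO points of Cenpk, Cenpm, Cenpa and Ndc80 all lie above the Het points, and those of Cenpb and Zwint lie among them.

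Among the constitutive genes that did not pass, Cenpa came nearest. Cenpa encodes the centromeric histone itself, and its level in HSC was 47.1, 30.1 and 19.3 CPM in KO, 15.4, 12.3 and 11.1 CPM in Het, and 4.12 and 5.71 CPM in Sham. The 3 groups did not overlap, and KO exceeded Het by a log2 change of 1.31 ± 0.33 (edgeR adjusted p = 0.0651). Cenpb, whose protein binds a repeated motif of centromeric DNA, was at 135.9, 139.2 and 163.6 CPM in KO and 101.9, 111.9 and 166.2 CPM in Het, with a log2 change of 0.21 ± 0.20. The 10 other CCAN genes ranged from -0.05 (Cenpl) to 1.33 (Cenpi). Cenpl, Cenpo (0.05), Cenpq (0.13) and Cenpc1 (0.25), the last encoding a CCAN protein that contacts the CENP-A nucleosome, had the smallest changes. Cenph and Cenpt were higher in every KO than in every Het library, at log2 changes of 1.14 and 0.64. In the mm9 annotation exons of Cenpo share 1380 bases with those of Adcy3 on the opposite strand, those of Sgol2 2455 bases with Kctd18, and those of Zwilch, Mis12, Oip5, Hjurp, Cenpq and Cenpt 2 to 254 bases with other genes on the opposite strand. Whether the counting used strand is not given in the sources used here, so the values of these 8 members are uncertain to that extent. Exons of Cenpb share 20 bases with Spef1 on the same strand. Ska2 and Ska3 were not found by name in that annotation, so their overlaps were not examined.

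In the outer kinetochore, 1 of the 4 subunits of the NDC80 complex, Ndc80 itself, passed the test in HSC. Nuf2, the direct partner of Ndc80, was at 101.7, 90.9 and 70.2 CPM in KO against 59.5, 21.1 and 31.2 CPM in Het, with no overlap and a log2 change of 1.24 ± 0.38 (edgeR adjusted p = 0.151). Spc25, of the end that docks on the kinetochore, had no overlap either, at a log2 change of 1.00 ± 0.32. Its partner Spc24 was at 51.5, 91.7 and 44.3 CPM in KO and 79.4, 45.7 and 27.1 CPM in Het, with a log2 change of 0.30 ± 0.32, so that the groups were mixed.

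The MIS12 complex, which joins the CCAN to the outer core, had 0 of 4 members called, at log2 changes from 0.14 for Mis12 to 0.88 for Pmf1, with Nsl1 at 0.66 and Dsn1 at 0.72. Only Dsn1 among these 4 was higher in every KO library. In the KNL1 complex 0 of 2 were called: Casc5, which encodes the checkpoint scaffold KNL1, had a log2 change of 1.5 ± 0.63 and overlapping groups (201.7, 85.7 and 66.7 CPM in KO, 87.8, 14.9 and 23.03 CPM in Het), while Zwint stood at 69.3, 73.6 and 72.1 CPM in KO and 60.0, 79.6 and 68.2 CPM in Het, a change of 0.05 ± 0.16.

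Of the RZZ complex, which brings dynein and checkpoint proteins to unattached kinetochores, Zwilch and Kntc1 had log2 changes of 1.33 ± 0.41 and 1.12 ± 0.44 and Zw10 one of 0.29 ± 0.23. In the SKA complex, which steadies the grip on microtubules, Ska1 had the second largest change of all members, 2.07, with a wide error of 0.68: it was at 16.2, 9.57 and 11.3 CPM in KO and 4.98, 0.0978 and 3.86 CPM in Het. HSC Het library 2_3 held 3 counts of Ska1, the floor of the counts read. Ska2 and Ska3 were at 0.58 and 0.49, and none of the 3 passed the test. Cenpe, a kinesin that carries chromosomes to the spindle equator, was at 264.8, 123.3 and 105.6 CPM in KO against 66.2, 33.0 and 40.5 CPM in Het; the groups did not overlap and the log2 change was 1.82 ± 0.43 (edgeR adjusted p = 0.0651). Cenpf, the other very large protein of the outer plate, had a log2 change of 1.45 ± 0.47 that did not pass, and HSC KO library 4 and HSC Het library 1 both stood at 159.8 CPM.

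The loading and cohesion genes lay in the same range. Log2 changes in HSC were 0.56 for Hjurp, the chaperone of CENP-A, 1.18 for Oip5, 1.05 for Sgol1 and 0.86 for Sgol2, and in each of the 4 the groups overlapped. Oip5 was the least certain, with an SE of 0.75 and 1 count (0.0326 CPM) in HSC Het library 2_3, below the floor of 3 counts (0.0978 CPM there).

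**Figure D3:**
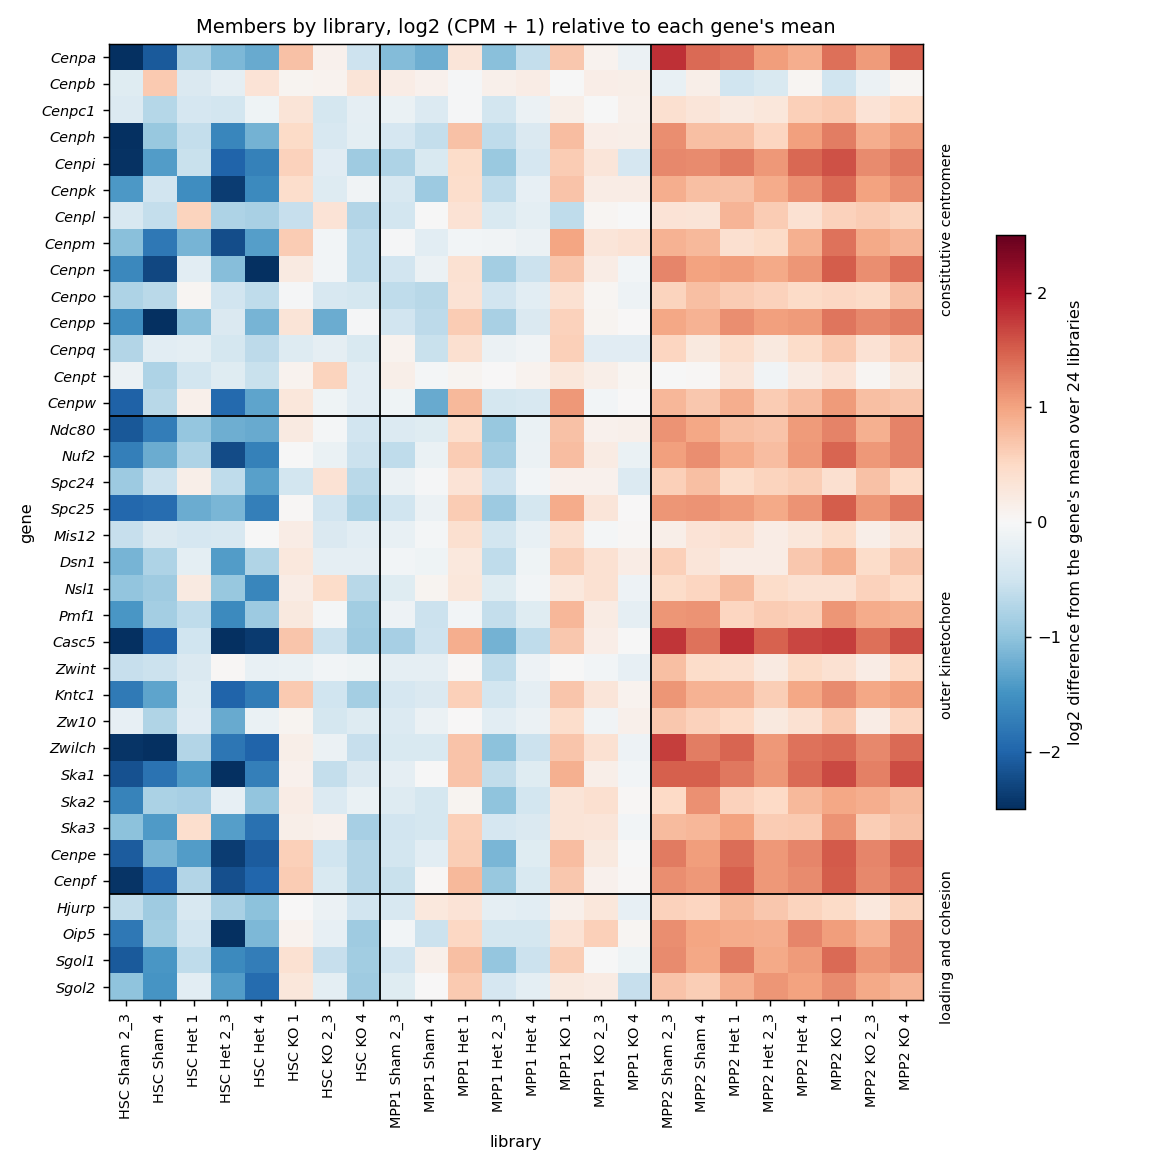
Each member (rows, by class) in each of the 24 libraries (columns), as log2 (CPM + 1) minus the gene's mean over all libraries; red is higher, blue lower, and colours are held at the ends of the scale. Sham and Het HSC columns are mostly blue and MPP2 columns mostly red, KO HSC columns are pale, with library 1 mostly pale red, and Cenpb does not follow this pattern.

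The same direction recurred between libraries of the same number, although the numbers do not show which pools were handled together. In HSC, 30, 33 and 32 of 36 members were higher in KO than in Het for numbers 1, 2_3 and 4, against 40.3%, 59.9% and 50.4% of all genes. In each of the 6 groups that have a library numbered 1, that library had the highest median log2 CPM over the 36 members. That median was 5.10, 4.71 and 4.31 in KO HSC and 4.66, 3.83 and 3.62 in Het HSC, so Het library 1 stood above KO library 4. Without the 6 libraries numbered 1, an alternative chosen after seeing the data, edgeR called 15 members higher in KO HSC.

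Constitutive centromere and outer kinetochore genes had changes of similar size in KO against Het HSC. Of the constitutive centromere genes, 2 of 14 were called and the median log2 change was 0.80; of the outer kinetochore genes, 1 of 18 was called and the median was 0.94. The outer median minus the constitutive median was thus 0.14, and its sign did not hold: it was -0.18 when all 16 Cenp genes, Cenpe and Cenpf included, were set against the 16 other outer genes, -0.08 without HSC KO library 1 and -0.06 without HSC KO library 2_3. No test was made of this difference, because the members share libraries and were chosen by name. The median level of the outer class exceeded that of the constitutive class in all 24 libraries, by 0.79 to 1.83 log2 CPM, without regard to gene length. In KO HSC the gap was 1.23, 1.14 and 1.11 and in Het HSC 1.18, 0.79 and 1.15, which overlapped.

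**Figure D4:**
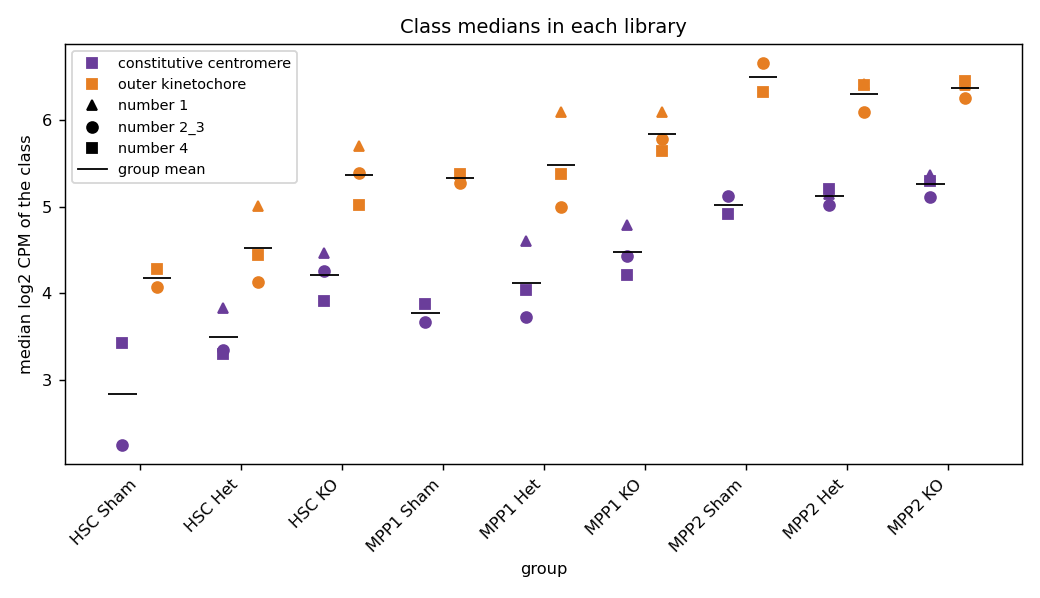
Median log2 CPM of the 14 constitutive centromere genes (purple) and the 18 outer kinetochore genes (orange) in each library, by group; symbols give the replicate number and bars the group mean. Within each genotype the group mean of both classes is lowest in HSC and highest in MPP2, while KO HSC lies above Sham MPP1 in both, and the distance between them is similar in KO and Het HSC.

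In MPP1, edgeR called 0 of 36 members in KO against Het, where 0.0559% of all genes were called. DESeq2 and limma on the authors' table also called 0, and 4 members were higher at an unadjusted p under 0.05 in edgeR (5.2% of all genes). The log2 change was above 0 in 32 of 36 members, against 43.7% of all genes, with a median of 0.33 for the members and -0.11 for all genes. That median was 0.81 without MPP1 Het library 1 and 0.10 without MPP1 Het library 2_3. The 5 members with the smallest p were Ska2 (0.69 ± 0.28), Pmf1 (0.68 ± 0.28), Cenpm (0.75 ± 0.35), Dsn1 (0.54 ± 0.26) and Ndc80 (0.49 ± 0.25), with edgeR adjusted p from 0.528 to 0.574. Cenpm was at 20.4, 12.3 and 12.8 CPM in KO and 9.28, 9.09 and 8.75 CPM in Het, and it was, with Cenpc1, the only member whose groups did not overlap (every library was higher in 8.49% of all genes). Ndc80 was at 100.6, 64.4 and 65.8 CPM in KO and 80.7, 30.6 and 53.0 CPM in Het, with MPP1 Het library 1 above 2 KO libraries. Ska2 has an annotated pseudogene, so its reads may be split.

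In MPP2 the levels in KO and Het were close. EdgeR, DESeq2 and limma each called 0 of 36 members, where edgeR called 0.415% of all genes, and 0 members had an unadjusted p under 0.05 (5.63% of all genes). The median log2 change was 0.11, 29 members lay above 0 (44.9% of all genes), and the members ran from -0.25 (Hjurp) to 0.49 (Cenpm). Cenpm was at 26.5, 19.6 and 18.5 CPM in KO and 13.2, 13.9 and 19.0 CPM in Het (0.49 ± 0.35, edgeR adjusted p = 0.993). Pmf1, the other member near the top, was at 67.9, 59.9 and 58.0 CPM in KO and 45.8, 48.9 and 47.8 CPM in Het, which did not overlap (0.38 ± 0.28). The log2 change was 0.32 ± 0.26 for Dsn1, 0.29 ± 0.25 for Ndc80 and -0.25 ± 0.21 for Hjurp, all with an edgeR adjusted p of 0.993. Every library was higher in 4 members, Cenpn, Cenpp, Pmf1 and Kntc1, and in 9.06% of all genes.

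Whether the KO effect differed between populations was tested directly. For MPP1 minus HSC, edgeR called 0 of 36 members, as it did among all genes (0%), with 3 members at an unadjusted p under 0.05 (4.87% of all genes), and DESeq2 and limma called 0. For MPP2 minus HSC it called 0 members and 0.0326% of all genes, with 7 members at an unadjusted p under 0.05 (7.29% of all genes); DESeq2 called 1, Cenpk, and limma 0. The median difference was -0.51 for MPP1 and -0.78 for MPP2 on the log2 scale. Cenpk had the smallest p among the members in both, with a difference of -1.62 ± 0.44 for MPP1 and -1.83 ± 0.44 for MPP2 (edgeR adjusted p = 0.988 and 0.186). A smaller effect in MPP1 or MPP2 was therefore not established for any member by the edgeR test over all libraries.

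Against Sham, the second control, 7 of 36 members rose in KO HSC and 0 fell, where 1.9% of all genes were called higher and 0.382% lower. In 26 members every KO library stood above both Sham libraries, which held for 15.8% of all genes. This comparison shares the KO libraries with KO against Het, so the 2 are not independent. Among these 7, Cenpa had the largest change, 2.71 ± 0.41 (edgeR adjusted p = 0.0036), followed by Zwilch (2.70 ± 0.51, adjusted p = 0.012), Cenpp (2.25 ± 0.53, 0.0292), Ndc80 (1.91 ± 0.30, 0.0036) and Cenpm (1.70 ± 0.42, 0.0267); Spc25 and Ska2 were the others. Casc5 (2.31) and Cenpf (2.19) had changes in the same range and did not pass. Zwilch was at 31.1, 25.1 and 18.4 CPM in KO, 16.5, 7.21 and 6.23 CPM in Het and 4.25 and 3.40 CPM in Sham. Cenpp, a CCAN subunit, was at 16.96, 5.03 and 13.1 CPM in KO, 5.93, 10.2 and 5.41 CPM in Het and 3.88 and 1.06 CPM in Sham, so its KO and Het groups were mixed. Cenpk, the leading member against Het, was not called against Sham (1.01 ± 0.36, edgeR adjusted p = 0.126). The count against Sham was 1 without Sham library 2_3, 4 without Sham library 4, 2 without HSC KO library 1 and 17 by DESeq2.

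EdgeR called 0 members in KO against Sham in MPP1 (0.121% of all genes) and in MPP2 (0.629%), with 7 and 0 members at an unadjusted p under 0.05 (10.4% and 5.73% of all genes); DESeq2 called 1 in MPP1, Cenpa, and 0 in MPP2, and limma 0 in both. The comparison of Het with Sham, whose mice differ in tamoxifen and in the floxed alleles, gave 0 members called by edgeR in each population, as for all genes (0%). There 6 members in HSC, 2 in MPP1 and 0 in MPP2 had an unadjusted p under 0.05 (6.92%, 0.965% and 5.32% of all genes), limma called 0 throughout, and DESeq2 called Cenpa in HSC and 0 in the others. In HSC the median change of the members was 0.35 with all libraries and -0.21 without those numbered 1.

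More members were called in MPP2 against HSC and in MPP2 against MPP1 within Het than in any comparison of genotypes. Within Het, 33 of 36 rose in MPP2 against HSC and 0 fell, where 9.59% of all genes were called higher and 8.37% lower; the median was 1.99 (3.98-fold) for the members and -0.01 for all genes. All 18 outer kinetochore genes and all 4 loading and cohesion genes passed, and of the 14 constitutive genes 11 did, Cenpt, Cenpl and Cenpb being the others. The median was 1.84 in both the constitutive and the outer class; with classes by name it was 1.99 for the 16 Cenp genes and 1.54 for the 16 other outer genes. Leaving out any Het library of the pair left 27 to 32 members called.

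Cenpk showed the smallest adjusted p here too, at 26.9, 31.0 and 35.8 CPM in Het MPP2 against 4.70, 2.22 and 4.55 CPM in Het HSC (log2 change 3.03 ± 0.33, edgeR adjusted p = 2.88e-07). Next came Ndc80 (2.03 ± 0.26, 9.43e-06), Cenpm (2.49 ± 0.37, 1.64e-05), Hjurp (1.46 ± 0.22, 1.66e-05), Spc25 (2.44 ± 0.33, 5.93e-05) and Cenpa (2.25 ± 0.34, 8.08e-05). In each of these 6 genes the lowest MPP2 library was above the highest HSC library. Spc25, for example, was at 144.7, 134.5 and 152.2 CPM in MPP2 and 28.7, 30.6 and 20.4 CPM in HSC. The largest change was that of Ska1, 3.68 ± 0.71, with HSC Het library 2_3 at the floor of 3 counts. The smallest among those called was that of Zwint, 0.55 ± 0.16. Cenpb did not follow: it was at 91.8, 99.5 and 134.3 CPM in MPP2 and 101.9, 111.9 and 166.2 CPM in HSC (-0.22 ± 0.20, edgeR adjusted p = 0.555).

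By the median level of the members, MPP1 lay between HSC and MPP2 within Het. Against HSC, 1 of 36 members, Cenpk, was called higher in Het, where 0.014% of all genes, 3 in number, were called; it stood at 21.7, 9.70 and 13.6 CPM in MPP1 (1.98 ± 0.32, edgeR adjusted p = 0.0127). The median change was 0.89, and 35 members lay above 0 (53.9% of all genes). That call was lost without HSC Het library 2_3 or without MPP1 Het library 1, each of which left 0 members called, while 8 were called without HSC Het library 1 and 3 without MPP1 Het library 2_3. In MPP2 against MPP1, 10 members rose and 0 fell (3.23% of all genes were called higher and 4.26% lower), with a median of 0.86. The 6 with the smallest adjusted p were Cenpa (1.49 ± 0.33, edgeR adjusted p = 0.00762), Ska2 (1.07 ± 0.28, 0.0143), Zwint (0.60 ± 0.16, 0.0154), Ndc80 (0.99 ± 0.25, 0.018), Cenpk (1.06 ± 0.31, 0.0319) and Cenpc1 (0.59 ± 0.17, 0.0334). Cenpa was at 73.0, 58.9 and 53.0 CPM in MPP2 and 34.9, 13.0 and 18.1 CPM in MPP1, without overlap. This count fell to 1 without MPP1 Het library 2_3, MPP1 Het library 4 or MPP2 Het library 4, to 3 without MPP2 Het library 1 and to 5 without MPP2 Het library 2_3, and it was 20 without MPP1 Het library 1.

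Levels of different genes were compared per kilobase of the deposited gene length. In Het HSC Cenpb was the most abundant member at 46.5 ± 12.7 CPM per kb (SD, n = 3), then Spc24 at 37.6 ± 19.7 and Zwint at 25.9 ± 3.67, the first 2 within each other's spread. Cenpk (0.904 ± 0.329), Cenpm (0.781 ± 0.367) and Ska1 (0.565 ± 0.485) were the lowest, and did not differ beyond their spread. Of the members called higher in KO HSC, Cenpk and Cenpm thus stood 34th and 35th of 36 in Het HSC, and Ndc80, at 12.1 ± 1.37, 9th; since Het entered that comparison, the Sham ranks of 30, 35 and 12 are given beside them. In KO HSC the lowest were Cenpm (2.91 ± 1.40), Cenpl (2.43 ± 1.13) and Ska1 (2.34 ± 0.649). In Het MPP2 the order was led by outer genes, Nuf2 at 81.7 ± 9.25, Spc24 at 77.6 ± 3.96 and Casc5 at 60.9 ± 7.08 CPM per kb, while Cenpb was at 39.8 ± 8.32; Cenpm was the lowest at 4.37 ± 0.902.

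Other genes that work at the kinetochore or mark division were read from a list of 31, of which 30 were tested. In KO against Het HSC, 1 of 30 rose and 0 fell (0.322% and 0.294% of all genes): Cdc20, the target of the spindle checkpoint, was at 64.4, 45.9 and 26.4 CPM in KO and 19.7, 13.8 and 18.4 CPM in Het, without overlap (log2 change 1.40 ± 0.31, edgeR adjusted p = 0.0414). The call was lost without HSC KO library 1, KO library 2_3, Het library 2_3 or Het library 4, each of which left 0 of the 30 called. The median of the 30 was 1.15, with 29 above 0 (51.9% of all genes). The proliferation markers Mki67 (1.51 ± 0.53, edgeR adjusted p = 0.201) and Top2a (1.39 ± 0.44, 0.164) did not pass. In MPP1 and MPP2 edgeR, DESeq2 and limma called 0 of 30 in KO against Het, with 3 higher in MPP1 and 1 in MPP2 at an unadjusted p under 0.05 in edgeR, against 5.2% of all genes higher in MPP1 and 5.63% in either direction in MPP2. The medians were 0.44 and 0.25. In Het MPP2 against HSC, 25 of 30 rose and 0 fell (9.59% and 8.37% of all genes), with a median of 2.41, Mki67 at 2.95 and Incenp, the scaffold of the chromosomal passenger complex, at 2.21.

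Of the marker lists of other cells, that of megakaryocytes held the 1 gene called in KO against Het HSC. The 5 megakaryocyte genes (Pf4, Itga2b, Gp5, Gp9 and Vwf) summed to 1160 to 1580 CPM in KO HSC, 414 to 708 in Het HSC and 457 to 526 in Sham HSC; all 5 changes were above 0 and the summed levels of KO and Het did not overlap. The 5 HSC genes (Procr, Hoxb5, Fgd5, Mecom and Hlf) summed to 504 to 541 CPM in KO HSC, 570 to 959 in Het HSC and 660 to 777 in Sham HSC. All 5 changes against Het were below 0 and the summed levels of KO and Het did not overlap, though 0 of 5 were called. In KO against Het, 3 of these 5 were below 0 in MPP1 and 0 in MPP2. Their sums in MPP2 were 146 to 212 CPM in KO and 71.1 to 130 in Het, with 0 called. The 10 neutrophil genes ran from 30.5 to 131 CPM in KO HSC and from 27.1 to 545 in Het HSC, which overlapped, with 0 called and none at 0 in every library. The 8 erythroid genes gave 52.9 to 84.2 CPM in KO HSC and 52.7 to 369 in Het HSC, which overlapped, with 0 called and Hba-a1 at 0 in each of these libraries. In MPP1 the KO and Het sums of both lists overlapped, but in MPP2 they did not. Neutrophil sums in MPP2 were 9.68 to 95.3 CPM in KO and 105 to 653 in Het, and erythroid sums 361 to 591 and 672 to 970. There all 10 neutrophil changes and all 6 erythroid changes tested were below 0, with 0 called. Granulocyte-monocyte progenitor genes reached 3010 CPM in MPP2 Het library 2_3, against 118 in the lowest MPP2 Het library and 86.3 to 130 in KO MPP2. All 5 of their changes in MPP2 were below 0, with 0 called. B cell, T and NK cell and macrophage genes were at 1.71 to 37.0 CPM in all groups, and stromal and endothelial genes at 82.9 to 165. Their part in the results for the centromere and kinetochore genes was not tested.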

How the data were processed

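The authors' deposited files hold raw counts per gene for each of the 24 libraries, with a gene length in bp, per the file headers. The submitters' processing notes name featureCounts among the tools, with TopHat2 2.0.9 and Bowtie 1.0.0, Trimmomatic 0.33 and FastQC, R 3.1.2 with edgeR, and mm9 as build. One more deposited table gives the authors' normalized signal for 12186 genes; it served for 1 alternative, as log2 (value + 1). Reads were paired-end, of 50 bp, from stranded libraries per the labels' protocols.

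The deposited counts were fitted with edgeR 4.0.16 under R 4.3.3: filterByExpr with a least count of 10, TMM scaling, and 1 robust quasi-likelihood model of 9 group means with 15 residual degrees of freedom (common dispersion 0.466). Tests were two-sided, adjusted by Benjamini-Hochberg over 21456 genes, with a threshold of 0.05. The SE of a log2 change is approximate: the size of the change over the root of F. Log2 CPM used a prior count of 2. The functions were tested on simulated counts. DESeq2 1.42.0, limma 3.58.1 (limma-trend), other scaling, no filter, a replicate block, each population alone and leaving out libraries were alternatives. Library totals of 18823971 to 53196624 counts set the precision, and a floor of 3 counts the least level read. There were 0 pairs of libraries with identical counts, and correlations within a group were 0.8779 to 0.9674.

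The members and the lists were chosen with earlier results of these data known. In each KO against Het comparison the members past the threshold are given in full, filled up to 5 by p; for populations within Het up to 6 are given, and for other comparisons up to 5. Positions are those of GENCODE vM1 on mm9; promoters are from a RefSeq table of the build GRCm38.p6, in which 32 of 36 members were found.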

Additional observations from a re-analysis of the deposited data

How the results depend on the processing

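Each gene named by the rule kept the sign of its change in the alternatives run for it. The outer minus constitutive median did not, in any of the 3 populations. Counts of members called also moved. The shares of all genes called in the same alternatives are not given here, so these counts do not show an excess among the members. For KO against Het in HSC the count of 3 became 14 with the replicate block, 8 by DESeq2, 7 by limma on the authors' table, 0 without HSC KO library 1 and HSC Het library 2_3, 19 without HSC and MPP1 Het libraries 1, 15 without the 6 libraries numbered 1 (chosen after seeing the data), and 1 to 13 with a single library left out. The count of other pathway genes in the same comparison, 1 at first, became 18 with the block, 9 by DESeq2, 6 by limma, 3 with HSC libraries fitted alone, and 0, 14 and 13 in the same 3 settings without libraries, or 0 to 6 without a single one; in MPP1 it was 1 without the libraries numbered 1. For KO against Het in MPP1 the count of members was 1 (Zwilch) without HSC and MPP1 Het libraries 1. For KO against Sham in HSC the count of 7 became 17 by DESeq2, 13 by limma, 4 with HSC libraries alone, 3 without HSC KO library 1 and HSC Het library 2_3, and 1 to 8 without a single library; in MPP1 it was 1 with the block and by DESeq2. Het against Sham in HSC gave 1 by DESeq2. For MPP1 against HSC in Het the count of 1 became 11 with the block, 8 by DESeq2, 4 by limma, 0 without HSC KO library 1 and HSC Het library 2_3, 10 without the libraries numbered 1, and 0 to 8 without a single one. For MPP2 against MPP1 the count of 10 became 20 with the block and by DESeq2, 19 by limma, 5 without MPP2 Het library 2_3, 25 without HSC and MPP1 Het libraries 1, 23 without those numbered 1, and 1 to 20 without a single one. The difference of the KO effect between MPP2 and HSC gave 1 with the block and by DESeq2 (Cenpk in both), 5 without HSC and MPP1 Het libraries 1 and 2 without those numbered 1. The outer minus constitutive median in HSC was -0.18 with classes by name, by the construction of the classes. The cause of the other moves was not tested.

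Whether the replicate numbers pair the samples was not settled. Deviations of KO and Het libraries of the same number correlated at -0.338, -0.081 and 0.048 in HSC. They correlated at 0.074, 0.023 and 0.015 in MPP1 and at 0.006, 0.33 and 0.224 in MPP2. Pairs of unlike number ran from -0.333 to 0.369 in HSC, -0.0653 to 0.0494 in MPP1 and -0.286 to 0.0945 in MPP2. Same-numbered libraries of different populations were not compared in this way, and the main tests took all libraries as independent. The block is therefore given as an alternative and not as a paired test. The median log2 change of all genes in KO against Het HSC was 0.03 with all libraries, 0.17 without HSC and MPP1 Het libraries 1 and 0.13 without those numbered 1. The larger counts there thus stand beside a shifted median. The median of the members in the same settings was 0.89, 1.41 and 1.03. Whether the shift of all genes bears on the counts was not tested. With 2 or 3 pooled libraries a group, their number limits the precision.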
